A study of Caenorhabditis elegans with 4 samples.

Results

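The translation factor genes of Caenorhabditis elegans were taken as the protein-coding genes of the Ensembl annotation whose names begin with eif-, eef-, iff-, ife-, ifg- or inf-, which gave 40 of 19985 genes. By name alone, 6 were classed as elongation factor genes (eef-), 32 as initiation factor genes (eif-, ife-, ifg- and inf-) and 2 as eIF5A genes (iff-). The classes follow the name prefix, and the function of each product was not checked. eIF5A was kept apart because the protein was first named for initiation and is now known to act in elongation. They were examined in a ChIP-seq study of LIN-15B, a nuclear THAP-domain protein, in whole L4 larvae of both sexes pooled, of unstated age. All 4 samples form 1 group. They come from strain OP184, which carries the unc-119(tm4063) allele and the integrated transgene wgIs184, with LIN-15B fused at its C terminus to GFP and FLAG. There are 3 biological replicates, and replicate 3 has 2 technical libraries that share 1 alignment and were counted once. The labels do not say how the cultures were kept apart, so the spread between replicates may be partly technical. The binding seen is that of the transgene product. In extracts of whole animals, strong binding in few cells and weak binding in many cannot be told apart.

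Translation initiation factors bring the small ribosomal subunit, the initiator tRNA and the mRNA together: eIF2 carries the tRNA, eIF2B recharges eIF2 with GTP, eIF3 is the large scaffold on the small subunit, and eIF4E, eIF4G and eIF4A bind and unwind the capped mRNA. Elongation factor eEF1A then delivers each aminoacyl-tRNA, the eEF1B subunits recharge eEF1A, and eEF2 moves the ribosome along the message. eIF5A binds stalled ribosomes and carries the modified lysine hypusine. LIN-15B belongs to the synMuv B class of worm genes, known for repressing germline genes in somatic tissue.

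Sequence from the reference genome (WBcel235, from RefSeq, with the coordinates of ce11) is shown for the 200 bp around the summits of the strongest member peak, at iff-2, of both eEF1 subunit genes with a peak that passed the authors' reproducibility threshold, and of 1 eIF3 gene. Each runs 5′ to 3′ on the strand of the translation factor gene, at II:8561336-8561535 on the minus strand, V:10965581-10965780 on the plus strand, III:6972038-6972237 on the minus strand and II:14795101-14795300 on the plus strand. Capitals mark every match, on either strand, to the 6 short motifs searched, namely the E2F-type element TTCCCGC, the CHR-type element TTTGAA, the GC box CCGCCC, the motif GCGTCTC, the TATA box TATAAA and the E-box CACGTG.
iff-2: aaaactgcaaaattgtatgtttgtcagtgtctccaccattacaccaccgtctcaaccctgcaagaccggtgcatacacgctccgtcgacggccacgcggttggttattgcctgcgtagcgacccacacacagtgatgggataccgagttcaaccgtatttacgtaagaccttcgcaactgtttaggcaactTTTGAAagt
eef-1G: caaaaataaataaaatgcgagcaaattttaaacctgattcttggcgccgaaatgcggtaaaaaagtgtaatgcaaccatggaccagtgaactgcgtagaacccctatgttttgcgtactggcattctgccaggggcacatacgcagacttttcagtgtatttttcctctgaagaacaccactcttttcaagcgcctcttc
eef-1A.1: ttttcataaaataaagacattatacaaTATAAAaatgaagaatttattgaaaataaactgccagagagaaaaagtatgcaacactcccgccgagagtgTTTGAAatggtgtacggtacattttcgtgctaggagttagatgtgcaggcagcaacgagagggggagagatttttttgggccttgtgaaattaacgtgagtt
eif-3.B: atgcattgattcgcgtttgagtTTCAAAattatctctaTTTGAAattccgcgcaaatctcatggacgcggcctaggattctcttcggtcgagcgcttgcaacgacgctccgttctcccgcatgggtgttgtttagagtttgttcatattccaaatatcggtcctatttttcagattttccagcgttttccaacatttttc

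Of the 40 translation factor genes, 8 had an optimal LIN-15B peak in the promoter, the 8 being eef-1A.1, eef-1G, eef-2, iff-2, eif-2Bbeta, eif-3.B, eif-3.C and eif-3.E. Optimal peaks are the 383 that passed the authors' reproducibility threshold, and they are also the 383 highest-scoring of the 8636 peaks called on the pool of replicates. A peak was given to a gene when its summit lay from 500 bp upstream to 100 bp downstream of any transcript start. The share was 20.0% (95% Wilson interval 10.5 to 34.8, counting error only), and 1.98% of all protein-coding genes had such a peak. Any pooled peak was found at 20 of 40 members, where 12.5% of all protein-coding genes had one. With a narrow window, from 250 bp upstream to 50 bp downstream, 11 members had a pooled peak. The share of all genes in that window is not given here, and the 12.5% does not apply to it. Each peak has a score, the authors' signal value, which ranks peaks within a list and is not comparable between lists. Depth is unknown, because the lists hold no read counts.

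In each replicate, translation factor genes had strong peaks in a larger share than other genes. The optimal list was made from these same replicates, so this is not independent of the counts above. Peaks among the 383 highest-scoring of a replicate, called top-ranked below, lay at 8 members in replicate 1, 5 in replicate 2 and 6 in replicate 3, where 1.69%, 1.73% and 1.69% of all protein-coding genes had one. The mean was 15.8% ± 3.82 of translation factor genes and 1.67% ± 0.0313 of the other protein-coding genes (SD, n = 3). The difference was 14.2 ± 3.85 percentage points and positive in 3 of 3 replicates (exact sign-flip permutation test over replicates, two-sided, p = 0.25, the smallest that 3 replicates allow). In at least 1 replicate, 9 members were top-ranked, against a background of 2.83% of genes, and these were the 8 with an optimal peak and eif-6. Top-ranked in all 3 replicates were 3 members, eef-1G, iff-2 and eif-3.C, where 0.781% of all genes were. When only optimal peaks top-ranked in both other replicates were kept, 4 members remained without replicate 1, 5 without replicate 2 and 4 without replicate 3. The share of all genes then was 1.02%, 0.986% and 0.981%.

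**Figure D1:**
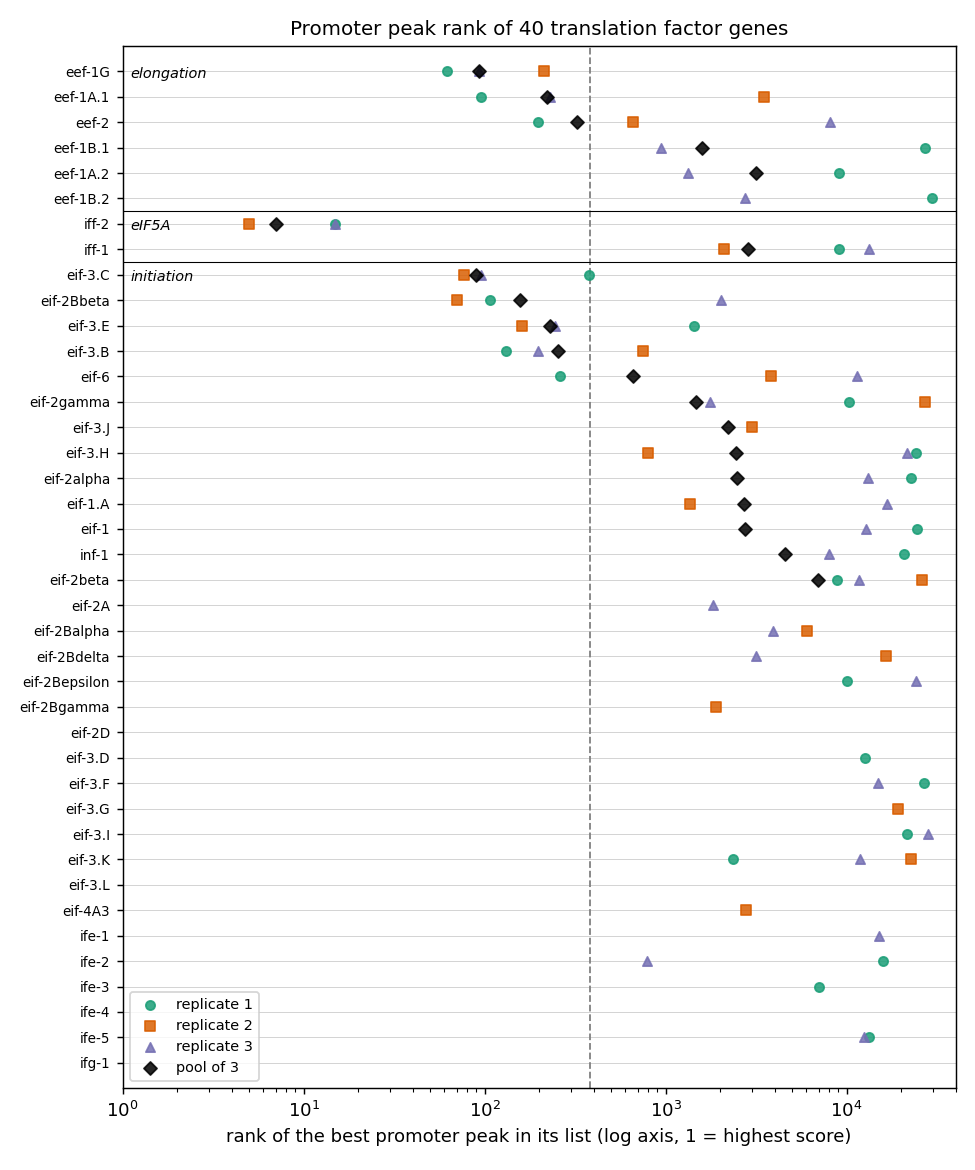
Rank of the best promoter peak of each of the 40 translation factor genes (vertical axis, grouped by class) in its own list, on a log axis where 1 is the highest score. Circles, squares and triangles are replicates 1, 2 and 3, diamonds are the pool, the dashed line is rank 383, and a missing symbol means no peak in the promoter; 8 genes have their diamond left of the line, with iff-2 at rank 7.

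Elongation factor genes had optimal peaks at 3 of 6, the genes for eEF1A, the eEF1 gamma subunit and eEF2. Of all protein-coding genes, 1.98% had one. eef-1G, which encodes the gamma subunit of eEF1B, had a pooled score of 63.9 (rank 93) and ranks of 62, 212 and 93 in replicates 1, 2 and 3, so all 3 were inside the top 383. Its peak, at V 10965511 to 10965850, was intergenic with the summit at -38 bp relative to the start. eef-1A.1, also known as eft-3 and used as a strong ubiquitous promoter in worm transgenes, had a score of 39.3 (rank 222) and replicate ranks of 95, 3480 and 231. Replicate 2 was thus far below the other two. Its intergenic peak, at III 6971968 to 6972307, had the summit at -426 bp.

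eef-2, the gene for the translocase, had a score of 31.4 (rank 324), the lowest of the 8. Its replicate ranks were 197, 660 and 8089, so only replicate 1 placed it in the top 383. The summit lay in its own 5′ UTR, at 11 bp from the nearest start (I 9163372 to 9163711). The remaining elongation factor genes had weak peaks or none. eef-1A.2, the second eEF1A gene, had a pooled score of 14.6 (rank 3150), ranks of 9092 and 1336 in replicates 1 and 3, and no promoter peak in replicate 2. eef-1B.1 had a pooled score of 17.2 (rank 1590), with ranks of 27214 and 941 in replicates 1 and 3 and again none in replicate 2. eef-1B.2 had no pooled peak, ranks of 29639 and 2745 in replicates 1 and 3, and none in replicate 2. For these 3 genes replicate 3 gave the best rank, outside the top 383 in each case.

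The eIF5A genes held the strongest and 1 of the weaker peaks. iff-2, the eIF5A gene of somatic tissue, had a pooled score of 210.6 at II 8561333 to 8561532, which was rank 7 of all pooled peaks and placed it 6th among protein-coding genes ordered by their best promoter peak. The replicates ranked it 15, 5 and 15, with scores of 46.5, 92.9 and 72.1 on their own scales. Its summit was intergenic, at -69 bp in the pool and at -70, -76 and -48 bp in replicates 1, 2 and 3. iff-1, the eIF5A gene of the germline, had a best pooled score of 14.9 (rank 2844) and replicate ranks of 9117, 2101 and 13234. That summit, at -344 bp, lay inside a coding exon of the neighbouring gene cdk-1, 65 bp downstream of the cdk-1 start. The ranks of these paralogs did not overlap across the 3 replicates.

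Initiation factor genes had optimal peaks at 4 of 32, 3 of them for eIF3 subunits and 1 for eIF2B. Of all protein-coding genes, 1.98% had one. eif-3.C had the highest score of this class, 64.2 (rank 90), and replicate ranks of 379, 77 and 96, all inside the top 383, the first only just. Its intergenic peak, at I 9979743 to 9980082, had the summit at -251 bp. eif-2Bbeta, a subunit of the exchange factor that recharges eIF2, had a score of 48.2 (rank 157) and replicate ranks of 107, 70 and 2023. Replicate 3 was the low one here. eif-3.E had a score of 39.0 (rank 229) and replicate ranks of 1434, 160 and 244, with replicate 1 low. eif-3.B had a score of 36.9 (rank 256) and replicate ranks of 131, 754 and 197, with replicate 2 low. Each of the 3 replicates was therefore the lowest for at least 1 of these genes. The summits lay at -203 bp for eif-2Bbeta (I 11893760 to 11894099), -137 bp for eif-3.E (I 10642248 to 10642587) and -203 bp for eif-3.B (II 14795031 to 14795370).

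Beside each count by complex stand the shares over all protein-coding genes, 1.98% with an optimal and 12.5% with a pooled peak. Of 11 eIF3 subunit genes, 3 had optimal peaks and 5 any pooled peak, the other two being eif-3.H (score 15.5, rank 2458) and eif-3.J (15.9, rank 2201). All 3 eIF2 subunit genes had a pooled peak and 0 of them an optimal one. Of these eif-2gamma had a score of 17.6 (rank 1465, summit at -100 bp). eif-2alpha, the subunit phosphorylated under stress, had 15.5 (rank 2469) with the summit in the 3′ UTR of its upstream neighbour phb-1. eif-2beta had 12.0 (rank 6938) with the summit in its own intron, and it was the lowest pooled score among the members. For eIF2B, 1 of 5 genes had a pooled peak, and it was the optimal one of eif-2Bbeta. The genes for cap binding and unwinding, eIF4E (ife-1 to ife-5), eIF4G (ifg-1) and eIF4A (inf-1), had 0 of 7 optimal and 1 of 7 pooled peaks, that of inf-1 with a score of 13.3 (rank 4563), counts near those shares. eif-1 and eif-1.A, whose products govern start codon choice, each had a pooled score of 15.1 (ranks 2730 and 2696). Of the other 4 genes of this class, eif-6, which keeps the ribosomal subunits from joining, had a pooled peak. It was the member closest below the threshold, with a score of 22.7 (rank 660), where the lowest optimal score was 28.9. Its replicate ranks were 260, 3812 and 11376, so it was top-ranked in replicate 1 alone.

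Elongation factor genes had top-ranked peaks in a larger share than initiation factor genes in each replicate, a comparison in which 3 replicates cannot reach the 0.05 threshold. In replicates 1, 2 and 3 they were 3, 1 and 2 of 6 elongation factor genes, and 4, 3 and 3 of 32 initiation factor genes. Over all protein-coding genes the shares were 1.69%, 1.73% and 1.69%. The mean share was 33.3% ± 16.7 of elongation and 10.4% ± 1.80 of initiation factor genes (SD, n = 3). The difference of 22.9 ± 15.1 points was positive in 3 of 3 (exact sign-flip permutation test over replicates, two-sided, p = 0.25). It was 13.9 points with the narrow window or with each peak given to its nearest start alone. With 6 elongation factor genes, 1 gene is worth 16.7 points.

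**Figure D2:**
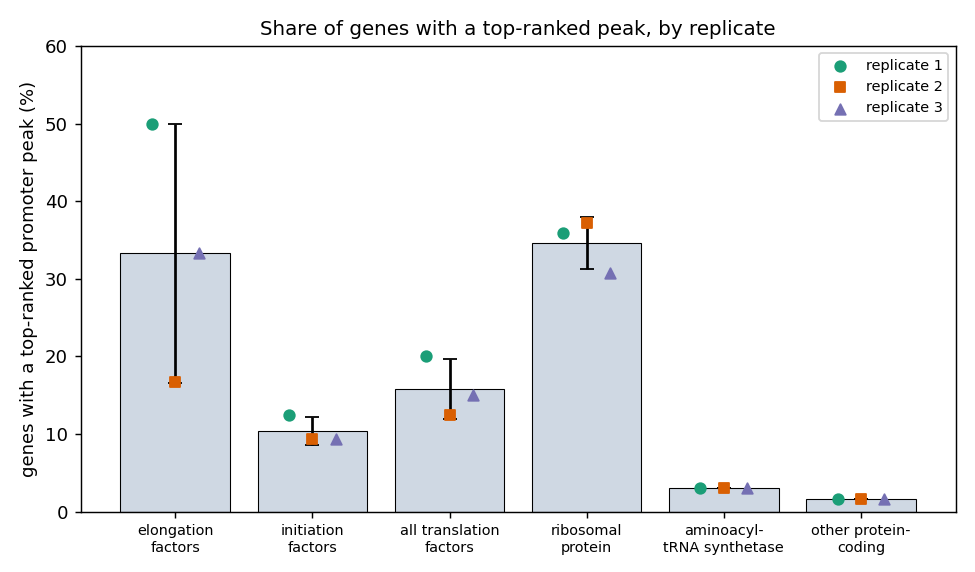
Percent of genes in each set with a promoter peak among the 383 highest-scoring of a replicate. Bars are means over the 3 replicates with SD, and symbols are single replicates; the translation factor genes lie at 15.8%, between ribosomal protein genes at 34.6% and other protein-coding genes at 1.67%.

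By score and rank the optimal peaks of both classes overlapped. The 3 elongation factor peaks had scores of 31.4 to 63.9 (ranks 93 to 324, median 222), and the 4 initiation factor peaks had 36.9 to 64.2 (ranks 90 to 256, median 193). Only iff-2, in neither class, stood above them. The median over all 395 protein-coding genes with an optimal peak was a score of 45.9 and a rank of 170, close to the 43.8 and 189.5 of the 8 members. Over members with any pooled peak, the median rank was 324 for 5 elongation and 2201 for 13 initiation factor genes. In replicate 1 the median rank was 4644.5 for 6 elongation and 10371 for 19 initiation factor genes. In replicate 2 it was 660 for 3 elongation and 2894 for 16 initiation factor genes. In replicate 3 it was 1138.5 for 6 elongation and 11568.5 for 22 initiation factor genes. Elongation factor genes had the better median in 3 of 3 replicates, but these medians leave out genes with no peak. The 3 elongation factor genes in replicate 2 were those with an optimal peak, so that median covers only the strongest of the class.

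Among optimal peaks, summit positions covered a wider range at the 3 elongation than at the 4 initiation factor genes. Elongation summits lay at -426, -38 and 11 bp, initiation summits at -251, -203, -203 and -137 bp. The elongation summits thus lay on both sides of the initiation summits, and no test was made. The summit at -426 bp, of eef-1A.1, was nearer to the start of rfc-4. Over the best promoter peaks of each replicate, elongation factor genes did not have a clearly wider range. It was -404 to -26 bp for elongation and -464 to 100 bp for initiation factor genes in replicate 1. In replicate 2 it was -436 to 16 and -444 to 7 bp, and in replicate 3 -480 to 64 and -468 to 77 bp. The median over the 8 members was -170 bp, and over all genes with an optimal peak -198 bp. With the narrow window the members' median was -103 bp, and it was also -103 bp when peaks not top-ranked in replicates 2 and 3 were left out. A replicate peak covered the pooled summit in 3 of 3 replicates for each of the 8 members. These peaks had passed a reproducibility threshold on the same replicates, so this coverage follows largely from how they were chosen. The replicate summits lay within 37 bp of the pooled one for eef-1G, eef-2, iff-2, eif-2Bbeta and eif-3.C. They lay up to 45 bp away for eif-3.E, 66 bp for eef-1A.1 and 114 bp for eif-3.B.

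**Figure D3:**
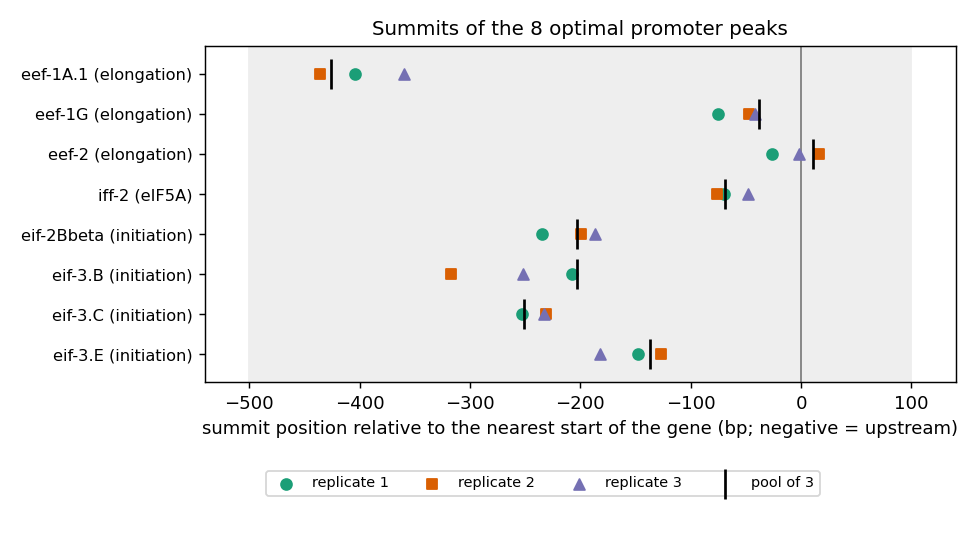
Summit position of the 8 optimal promoter peaks relative to the nearest start of the translation factor gene, in bp, negative upstream. Vertical ticks are the pool, circles, squares and triangles are replicates 1, 2 and 3, and the grey area is the promoter window; summits of eef-1A.1 lie farthest upstream, at -426 bp in the pool, and those of eef-2 at the start, at 11 bp.

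Each of the 3 optimal peaks of elongation factor genes stood in a divergent promoter shared with a second gene. A divergent upstream gene was common, found for 76.7% of all 395 protein-coding genes with an optimal peak. The share of all optimal peaks that lie in the promoters of more than 1 gene is not given here. No trait of elongation factor genes is therefore read from the sharing. The eef-1A.1 peak was shared with rfc-4, a replication factor C subunit, with the summit at -115 bp from the rfc-4 start and so closer to rfc-4. The eef-1G peak was shared with ctf-4, a replisome component, with the summit at -142 bp from that start and closer to eef-1G. The eef-2 peak was shared with clsp-1, the claspin gene of the replication checkpoint, with the summit at -276 bp from that start. Among initiation factor genes, the eif-2Bbeta peak was shared with Y47H9C.8, with the summit at -1 bp from that start. The peaks of iff-2, eif-3.B, eif-3.C and eif-3.E had no other protein-coding start in their window. For 2 of the 8 members, eef-1A.1 and eif-2Bbeta, the other gene's start was thus the nearer one, and which gene a peak serves was not tested.

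The gene next upstream pointed the other way for 6 of the 8 members with an optimal peak (75.0%), for 16 of the other 32 members and for 76.7% of all 395 protein-coding genes with an optimal peak. The exceptions were eif-3.B and eif-3.C. The median gap to the upstream gene was 470 bp for the 8, 463.5 bp for the other members and 460 bp for all genes with an optimal peak. By chromosome, 4 of 12 members on I had an optimal peak, 2 of 12 on II, 1 of 7 on III and 1 of 4 on V. On IV it was 0 of 2 and on X 0 of 3. These counts were not set against all genes of each chromosome, so no preference is read from them.

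The base composition around the members' summits was close to that of all optimal peaks. In 300 bp centred on the summit, G+C content had a median of 37.3% over the 8 members (31.0% at eif-2Bbeta to 45.3% at iff-2), against 37.7% over 365 nuclear optimal peaks, 35.7% over 8253 other pooled peaks and 34.3% over 19973 nuclear promoters of the same length. TTTGAA was in 6 of 8 members' windows (75.0%), 64.1% of optimal and 62.5% of promoter windows. In the sequence printed above for eef-1A.1 it spans the summit, starting at -1 bp from it. TTCCCGC was in 1 of 8, at iff-2, with its first base at -136 bp from the summit and so outside the stretch shown, and in 4.66% of optimal and 3.22% of promoter windows. TATAAA was in 2 of 8, at eef-1A.1 and eif-3.B, and in 27.1% and 37.9%. The GC box CCGCCC was in 0 of 8, in 12.3% of optimal and in 7.83% of promoter windows. The motif GCGTCTC was in 0 of 8, 15.1% and 4.32%, and the E-box CACGTG in 0 of 8, 6.03% and 5.82%. With 8 windows these shares are descriptions only. The 300 bp windows of all 20 members with a pooled peak consisted of 36-base words found once in the genome, 265 of 265 in each, also at the eEF1A paralogs.

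The replicate lists hold 30000 peaks each, against 8636 in the pool, and most members had a peak in at least 1 of them. Any promoter peak was found at 27 members in replicate 1 (67.5%), 21 in replicate 2 (52.5%) and 30 in replicate 3 (75.0%), where 26.2%, 26.9% and 26.7% of all protein-coding genes had one. At least 1 replicate had one at 36 members, against 52.0% of all genes, and all 3 replicates at 14 members (35.0%), against 6.87%. The 4 with no promoter peak in any list were eif-2D, eif-3.L, ife-4 and ifg-1. ife-2, a cap-binding eIF4E gene with no pooled peak, had ranks of 15969 and 789 in replicates 1 and 3 and none in replicate 2. The members without an optimal peak that had a pooled one numbered 12, with scores from 12.0 at eif-2beta to 22.7 at eif-6.

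Translation factors and regulators under other names had optimal peaks at 2 of 23 genes found of 28 listed, where 1.98% of all protein-coding genes had one. drr-2, an eIF4H-like factor, had a score of 133.7 (rank 19), with the summit at -179 bp in a promoter shared with set-16. gfm-1, the mitochondrial elongation factor G, had 30.2 (rank 352, -134 bp). A pooled peak was found at 12 of the 23, where 12.5% of all protein-coding genes had one, among them the release factor genes erfa-1 (score 26.8, rank 449) and erfa-3 (18.1, rank 1305), and gcn-1 (25.1, rank 523), an activator of the eIF2 kinase GCN2. Aminoacyl-tRNA synthetase genes had an optimal peak at 1 of 32, ears-2 (score 49.2, rank 150), a share of 3.12% (95% Wilson interval 0.554 to 15.7, counting error only) that is near the 1.98% of all genes. That peak, with the summit at -12 bp from the ears-2 start, was shared with uncp-18.

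Translation factor genes were top-ranked in a smaller share than ribosomal protein genes. The means were 15.8% ± 3.82 of 40 translation factor genes and 34.6% ± 3.39 of 78 ribosomal protein genes (SD, n = 3). The difference was -18.8 ± 5.11 points and negative in 3 of 3 replicates (exact sign-flip permutation test over replicates, two-sided, p = 0.25). In the optimal list the share was 20.0% of translation factor and 44.9% of ribosomal protein genes.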

How the data were processed

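ChIP-seq peaks of GFP-tagged LIN-15B were analysed from 4 samples in 1 group, 3 biological replicates. Per the deposited descriptions, the authors called peaks for each replicate and for the pool, each against a control alignment, and kept as optimal those that passed a test of reproducibility (irreproducible discovery rate). For alignment, peak calling and the cutoff, tools and settings are not stated in the labels or file headers. The deposited score of a peak is the authors' signal value, used only to rank peaks within a list. Depth is unknown. Main results use the ce11 lists, Ensembl release 115 on WBcel235 (the coordinates of ce11) and its RefSeq sequence.

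The members, lists, motifs and alternatives were chosen with earlier results of these data known. Genes named are all members with an optimal peak or a top-ranked replicate peak, all eef- and iff- genes, the 5 highest-scoring members without an optimal peak, genes sharing a member's optimal peak and listed genes with one. Other genes (iff-1's neighbour cdk-1, members with no peak or with a weak one, erfa-1, erfa-3 and gcn-1) were named after their values were seen. So was uncp-18, which shares the ears-2 peak. Ribosomal protein genes are those named rpl- or rps-. Shares are means over the 3 replicates with SD, tested by an exact sign-flip permutation test over replicates. Genes are not replicates, so no test over genes was made. Intervals cover counting error only. Motifs were searched on both strands in 300 bp around summits, and in promoters from 250 bp upstream to 50 bp downstream of the outermost start. Summit assignment was tested on simulated data. Python 3.11.15, numpy 2.4.6, scipy 1.17.1 and matplotlib 3.10.9 were used.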

Additional observations from a re-analysis of the deposited data

How the results depend on the processing

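Of 64 recomputed values, 0 reversed and 18 moved by over 1.5 times (counts) or by more than the SD between replicates (other values without a test). Counts and the members' median rank cannot change sign, so for them the 0 was fixed in advance. The other 46 were labelled neither moved nor reversed, and several of them changed in size, as given here. The 8 members with an optimal peak were the same 8 with the wide window (1000 bp upstream to 200 bp downstream), with any overlap of 1 bp, and when only the 350 peaks matched by chromosome and score in the 351 optimal peaks on ce10 were kept, an alternative chosen after seeing the data. The narrow window (250 to 50 bp) and the nearest start alone left 6 members each, where 1.28% and 1.4% of all protein-coding genes had an optimal peak. With optimal peaks limited to the upper 50 percent by score, 4 members remained, 2 initiation and 1 elongation factor genes among them, where 1.1% of all genes had such a peak. Without a replicate there were 4 to 5 members, 2 initiation and 1 to 2 elongation factor genes. The narrow window left 11 members with a pooled peak, without a share of all genes to set beside them. The median summit position moved to -103 bp with the narrow window and with the nearest start, to -136 bp in the upper 50 percent, and lay between -203 and -103 bp without a replicate. The difference between translation factor and other genes lay between 12.1 and 15.8 points without a replicate, and was 11.3 to 17.1 points under the other alternatives. That between elongation and initiation factor genes lay between 15.6 and 30.7 points without a replicate, and between 13.9 and 30.9 points under the others. The median pooled rank of elongation minus that of initiation factor genes, -1877, was -1141 with the narrow window. The median pooled rank of the members, 1527.5, was 324 with the narrow window and 2132 with the wide one. The SD used as the limit was 3510 for the members' median and 4110 for the difference. It was taken over replicate lists of 30000 peaks, against 8636 in the pool, so this limit was wide for pooled ranks. The cause of the shifts in the recomputed values was not tested, beyond the smaller number of peaks or starts that each stricter alternative keeps. The unknown depth limits what the absence of a peak shows.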
